A study of Sus scrofa with 6 samples.

Results

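Toll-like receptors (TLRs) are membrane proteins of the innate immune system that recognise molecules shared by many microbes. Some of them sit on the cell surface and bind bacterial lipids, lipoproteins or flagellin, and others sit in endosomes and bind nucleic acids. MYD88 is the cytoplasmic adaptor that most of them recruit, and through IRAK kinases and TRAF6 it leads to NF-κB and AP-1 activity and to inflammatory cytokines. In blood, TLR4 and TLR2 are best known from monocytes and neutrophils, TLR10 from B cells, and TLR7 and TLR9 from B cells and plasmacytoid dendritic cells. Leptin, the hormone of fat cells, acts on immune cells as well, and the question here was how the RNA of these receptors stood in pigs made to express more of it.

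The genes described are TLR1, TLR2, TLR3, TLR4, TLR6, TLR7, TLR8, TLR9, TLR10 and MYD88, taken by symbol. All 10 symbols were found among the 11564 genes of the deposited table, and all 10 passed the filter of at least 1 FPKM in at least 3 libraries. FPKM, fragments per length of transcript and per size of the library, is a value scaled by gene and library, so levels of different genes may be set side by side. TLR5 was not analysed here.

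RNA had been sequenced from peripheral blood mononuclear cells (PBMCs, the lymphocytes and monocytes of blood) of 6 pigs of the Yorkshire breed aged 6 months. Of these, 3 were labelled WT and 3 Leptin-overexpressing, called leptin pigs below, with 1 animal per library and no treatment named. The leptin line was made by somatic cell nuclear transfer with fetal fibroblasts carrying the pig leptin reading frame, and the controls were nontransgenic. The study states that the pig leptin promoter controlled the transgene. The legend of the vector drawing also expands the abbreviation for a cytomegalovirus element and does not say what that element does. The number of founder cell clones behind the 3 leptin pigs was not given in the sources used here.

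Several library values bear on every comparison below. LEP RNA was at 50.0, 0 and 0.118 FPKM in WT 1, 2 and 3 and at 0, 18.3 and 39.3 FPKM in leptin 1, 2 and 3, so that the libraries labelled WT 1 and leptin 1 went against their labels. The labels were kept, and the genotype differences are given with and without both of these libraries. T cell CD3E (213 to 372 FPKM), B cell CD79A (133 to 248 FPKM), monocyte CD14 (99.9 to 291 FPKM) and NK cell NKG7 (66.9 to 123 FPKM) were present in all 6 libraries, as were platelet PF4 (95.3 to 358 FPKM) and erythroid HBB (17.7 to 211 FPKM). Sex was not given by the labels, and the Y-linked DDX3Y stood at 35.0, 31.1 and 20.4 FPKM in WT 1, WT 2 and leptin 1 and below 1 FPKM in the other 3 libraries. The study's protocol gives the fetus from which the fibroblasts came as male, and leptin 2 and leptin 3 were among the 3 libraries with almost no DDX3Y RNA. The study describes its transgenic pigs as animals born from the nuclear transfer and gives no breeding step.

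MYD88 was by far the most abundant of these RNAs, and TLR4 and TLR2 led the receptors. MYD88 averaged 223 ± 49.7 FPKM in WT and 204 ± 47.2 FPKM in leptin pigs (SD, n = 3 each), which placed it at percentile 97.1 of all genes by mean level. By mean level over the 6 libraries the order was MYD88, TLR4, TLR2, TLR1, TLR6, TLR8, TLR7, TLR10, TLR9 and TLR3, and the order by median was the same. The surface receptors of bacterial lipids thus came first, and TLR9 and TLR3, both endosomal, came last.

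Neighbours in this order were compared within libraries by an exact two-sided sign-flip permutation test of the differences in log2(FPKM + 1). Over 6 libraries the smallest p this test can give is 0.03125. Of the 9 neighbouring pairs, 6 reached that value, which became 0.0469 after Benjamini-Hochberg adjustment over the 9. These were MYD88 over TLR4, TLR4 over TLR2, TLR1 over TLR6, TLR6 over TLR8, TLR7 over TLR10 and TLR9 over TLR3, each in 6 of 6 libraries. The step from MYD88 to TLR4 was the largest at 2.21 ± 0.68 on the log2 scale (SD), and that from TLR6 to TLR8 was the smallest of the 6 at 0.29 ± 0.25. The other pairs did not pass: TLR2 was higher than TLR1 in 4 of 6 libraries (adjusted exact p = 0.211), TLR8 was higher than TLR7 in 4 of 6 (0.25), and TLR10 was higher than TLR9 in 5 of 6 (0.1205). Their mean differences on the log2 scale were 0.57 ± 0.74, 0.13 ± 0.21 and 0.51 ± 0.49 (SD).

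**Figure D1:**
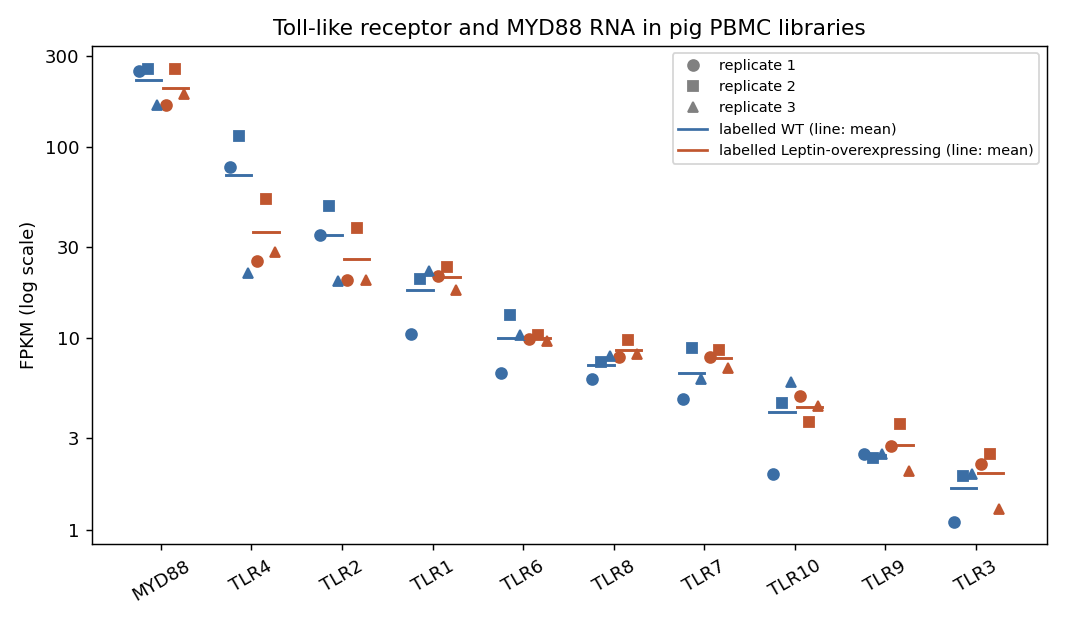
FPKM on a log axis of the 9 Toll-like receptors and MYD88, ordered by mean level, with 1 point per library and the genotype by colour. MYD88 sits between 166 and 257 FPKM in every library, TLR4 spans 22.0 to 114 FPKM, and points of WT and leptin pigs intermingle in every column.

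TLR4, the receptor that with LY96 (MD-2) binds bacterial lipopolysaccharide, varied most among the 10. It stood at 78.2, 114 and 22.0 FPKM in WT 1, 2 and 3 and at 25.4, 53.8 and 28.2 FPKM in leptin 1, 2 and 3. Its highest value was 5.21 times its lowest, and its SD over the 6 libraries of 0.95 on the log2 scale exceeded that of 98.7% of the genes tested. The WT libraries held both the highest and the lowest value, so the groups overlapped. The gene (ENSSSCG00000005503) spans 289775821 to 289785847 of chromosome 1 by the deposited coordinates, whose genome build is not given in the sources used here.

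TLR2, which recognises bacterial lipoproteins as a partner of TLR1 or TLR6, stood at 34.8, 49.2 and 19.9 FPKM in WT and at 20.1, 37.8 and 20.1 FPKM in leptin pigs. WT 1, WT 2 and leptin 2 were high and the other 3 libraries lay close together near 20 FPKM. Its SD was 0.55 on the log2 scale. TLR2 (ENSSSCG00000009002) lies on chromosome 8 from 79824540 to 79834592, and inside that span the table has a second row without a symbol, ENSSSCG00000009003, from 79824840 to 79825128. This row stood at 111, 175 and 58.0 FPKM in WT and at 65.9, 130 and 64.1 FPKM in leptin pigs, with the same 3 libraries high. How reads were divided between both rows is not known here, so the level of TLR2 is uncertain.

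TLR1, TLR6 and TLR10 are close relatives of each other that lie side by side on chromosome 8. TLR10 spans 31604731 to 31615025, TLR1 31627787 to 31635628 and TLR6 31641825 to 31660823, with 12761 and 6196 bases between them and no other row of the table in either gap. Since they are similar in sequence, reads could be split among them, and their separate levels are uncertain to that extent. TLR1 stood at 10.6, 20.4 and 22.6 FPKM in WT and at 21.2, 23.7 and 18.0 FPKM in leptin pigs. TLR6 stood at 6.56, 13.3 and 10.4 FPKM in WT and at 9.90, 10.4 and 9.73 FPKM in leptin pigs. TLR10, a B cell receptor whose ligand is less well settled, stood at 1.95, 4.57 and 5.89 FPKM in WT and at 5.02, 3.67 and 4.42 FPKM in leptin pigs. WT 1 was the lowest library for each of the 3 genes, and the 3 leptin libraries lay within the WT range except for the TLR1 value of leptin 2.

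Among the endosomal receptors, TLR7 and TLR8, both sensors of single-stranded RNA, were the more abundant. They lie next to each other on the X chromosome, TLR7 from 10450658 to 10476655 and TLR8 from 10500861 to 10512940. TLR8 stood at 6.11, 7.50 and 8.07 FPKM in WT and at 7.97, 9.85 and 8.26 FPKM in leptin pigs. TLR7 stood at 4.84, 8.86 and 6.15 FPKM in WT and at 7.99, 8.69 and 7.01 FPKM in leptin pigs. The groups overlapped for both genes.

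TLR9, the sensor of unmethylated CpG DNA on chromosome 13 (37647228 to 37652020), was at 2.49, 2.36 and 2.49 FPKM in WT and at 2.73, 3.57 and 2.02 FPKM in leptin pigs. The WT values were nearly equal, and those of leptin pigs lay on either side of them. TLR3, the sensor of double-stranded RNA, which signals through TICAM1 and not MYD88, lies on chromosome 15 (53840782 to 53852536). It stood at 1.10, 1.92 and 1.97 FPKM in WT and at 2.20, 2.48 and 1.28 FPKM in leptin pigs, the lowest levels of the 10. At these levels the pseudocount of 1 compresses differences, so the fold changes below understate those of TLR3 and TLR9.

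MYD88 (ENSSSCG00000011251, chromosome 13 from 25181050 to 25185351) stood at 249, 255 and 166 FPKM in WT and at 166, 257 and 190.0 FPKM in leptin pigs. As with TLR4 and TLR2, WT 1, WT 2 and leptin 2 were its 3 highest libraries. That set of 3 libraries was highest for 3 of the 10 genes, against 575 of the 10735 genes tested (5.4%).

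No gene of the 10 passed the test between leptin and WT pigs, and 7 had a higher and 3 a lower estimate in leptin pigs. In limma on log2(FPKM + 1) over the 10735 genes tested, 0 of the 10 had an adjusted p under 0.05, against 1 gene of all those tested (0.00932%). At an unadjusted p under 0.05 it was again 0 of 10, against 341 genes (3.18%). The groups overlapped for all 10, whereas 819 genes (7.63%) had groups without overlap. With 3 libraries against 3, an exact permutation test cannot give a p under 0.1, and the smallest among the 10 was 0.2 for TLR8.

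The estimates leave room for sizeable differences in either direction. The fold change was negative for TLR4, at -0.77 (SE 0.56, 95% interval -2.07 to 0.53), for TLR2, at -0.37 (SE 0.36, -1.20 to 0.45), and for MYD88, at -0.13 (SE 0.23, -0.66 to 0.41), all on the log2 scale. It was positive for the other 7 genes, from 0.038 for TLR6 to 0.28 for TLR1 (SE 0.27, -0.35 to 0.91). TLR7 was at 0.25 (SE 0.21, -0.23 to 0.74) and TLR8 at 0.24 (SE 0.16, -0.13 to 0.61). The adjusted p in limma was 0.997 for TLR6 and 0.993 for each of the other 9. The median over the 10 genes was 0.13 beside 0.059 over all genes tested, and 6 of the 10 lay above that all-gene median. Single libraries moved this median: it was -0.038 without WT 1 (3 of 10 above the all-gene median of that fit), 0.24 without WT 2 (7 of 10), 0.026 without leptin 2 (4 of 10), 0.077 without leptin 1 (7 of 10) and 0.196 without leptin 3 (6 of 10). Without both replicate 1 libraries it was -0.058, with 4 of 10 above.

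**Figure D2:**
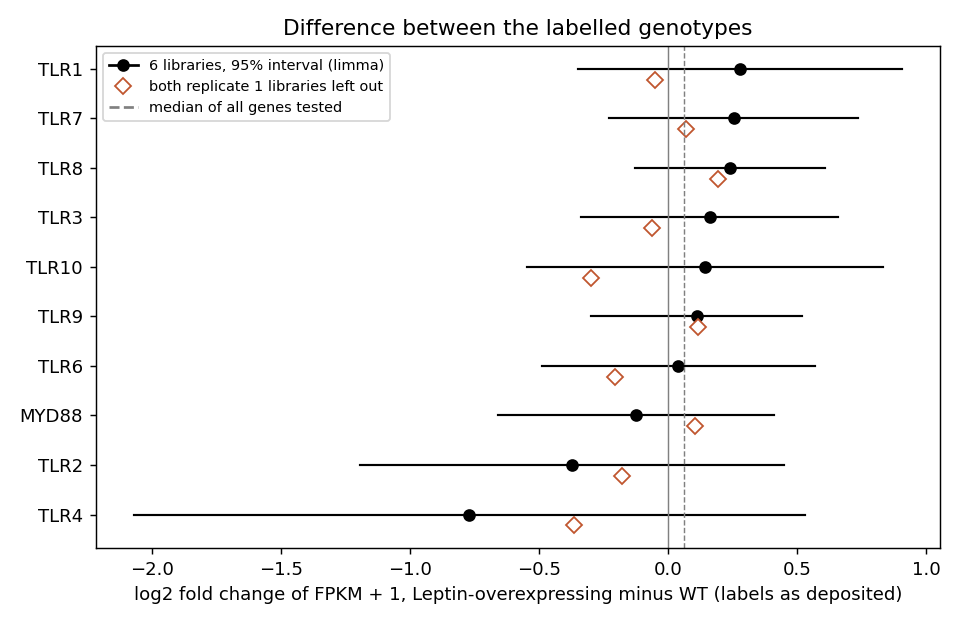
Log2 fold change of FPKM + 1, leptin minus WT pigs, for the 9 Toll-like receptors and MYD88, with the 95% interval from limma as bars. Every interval includes 0, and that of TLR4 is the widest, from -2.07 to 0.53.

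Without both replicate 1 libraries, 2 libraries per group remained, and again 0 of the 10 passed in limma at an adjusted or unadjusted p under 0.05, against 0 and 242 of the 10431 genes then tested (2.32% for the unadjusted p). TLR4 was then at -0.36, TLR2 at -0.18, TLR8 at 0.19, TLR7 at 0.070 and TLR9 at 0.12. The sign turned for MYD88 (0.10), TLR10 (-0.30), TLR6 (-0.21), TLR3 (-0.063) and TLR1 (-0.053). The direction of the difference in these 5 genes thus differed between the fits with and without these libraries. The all-gene median changed sign as well, from 0.059 to -0.032. TLR6 also turned when all libraries were kept and rescaled to the same total (-0.079). Why the signs turned was not tested. TLR4 moved most with single libraries, from -1.46 without WT 3 to -0.29 without WT 2. In the fit without WT 3 its unadjusted p in limma was 0.00325 and its adjusted p 0.532, and 846 of the 10588 genes of that fit (7.99%) had an unadjusted p under 0.05.

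Within each genotype label the members varied from library to library. WT 1 held the lowest value of 6 of the 10 genes, TLR1, TLR6, TLR8, TLR7, TLR10 and TLR3, and the highest of 0, while 37.5% of all genes tested were also lowest there. Leptin 2 held the highest value of 5 genes, MYD88, TLR1, TLR8, TLR9 and TLR3, against 14.8% of all genes tested. WT 2 held the highest of 4, TLR4, TLR2, TLR6 and TLR7, against 12.9%. WT 1 was therefore high for TLR4, TLR2 and MYD88 and low for the other surface receptors.

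**Figure D3:**
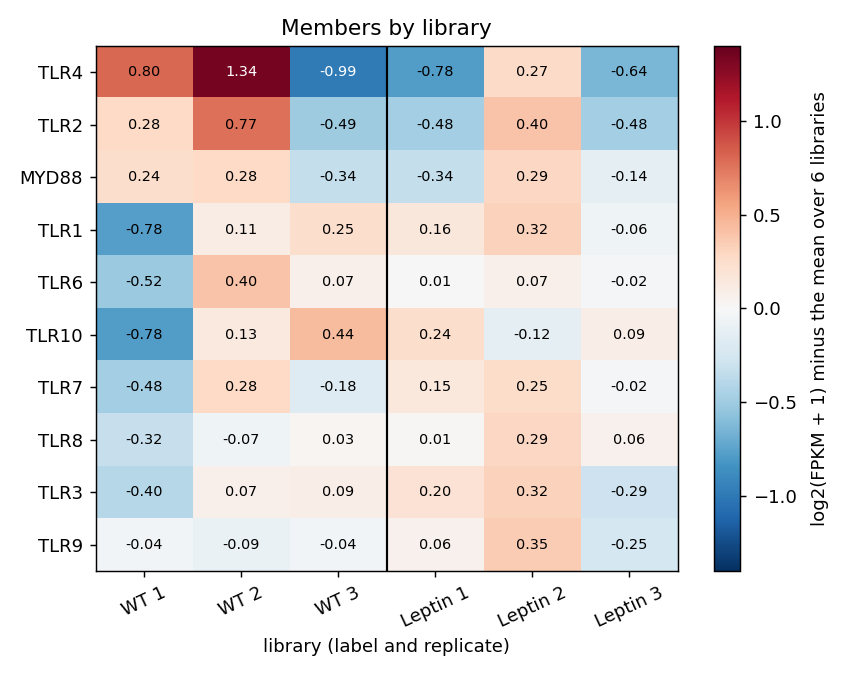
Heat map of log2(FPKM + 1) minus the gene's mean over the 6 libraries, with genes in rows and libraries in columns (red above, blue below the mean). TLR4, TLR2 and MYD88 are above their means in WT 1, WT 2 and leptin 2, and WT 1 is below the mean for TLR1, TLR6, TLR8, TLR7, TLR10 and TLR3.

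Markers of the blood cell types also moved between libraries, and in bulk RNA fewer cells of a type and less RNA per cell cannot be told apart. The 8 monocyte markers found of 10 summed to 411 to 904 FPKM in WT and to 573 to 946 FPKM in leptin pigs. The 7 neutrophil markers found of 12 summed to 413 to 3528 FPKM in WT, with the top value in WT 1, and to 412 to 1269 FPKM in leptin pigs. Among them S100A8 was at 699 FPKM in WT 1 and at 66.5 to 225 FPKM elsewhere, while ELANE, a granule protease of immature neutrophils, was at 0.275 to 1.05 FPKM. With S100A9 (1031 FPKM) and S100A12 (1702 FPKM), S100A8 made up most of the WT 1 sum. LTF and MMP8 were also highest in WT 1, but MMP9 was highest in leptin 2 (225 FPKM, against 59.7 FPKM in WT 1) and ELANE in leptin 1. The 6 B cell markers found of 9 summed to 362 to 636 FPKM in WT, lowest in WT 1, and to 528 to 629 FPKM in leptin pigs. The 5 plasmacytoid dendritic cell markers found of 10 summed to 214 to 420 FPKM in WT and to 202 to 476 FPKM in leptin pigs, lower in leptin 1 than in any other library. Most of that sum came from IRF7 (119 FPKM in leptin 1) and PLAC8 (68.1 FPKM). By gene the lowest library differed: it was leptin 1 for IRF7 and RUNX2 and WT 1 for TCF4, BCL11A and PLAC8. CLEC4C, the defining marker of this list, was not among those found. The part of these cell types in the receptor levels was not tested.

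Beside single markers the picture differed by gene. CD14, the lipopolysaccharide coreceptor of monocytes, was at 291, 159 and 99.9 FPKM in WT and at 122, 263 and 166 FPKM in leptin pigs. The ratio of TLR4 to CD14 was 0.718 in WT 2 and between 0.169 and 0.269 in the other 5 libraries. WT 2 therefore had the most TLR4 RNA of any library with a CD14 level in the middle of the 6. Other monocyte markers did peak there as TLR4 did: of the 9 rows for these markers, CCR2 (39.4 FPKM), VCAN (29.7 FPKM) and the more abundant of the CD68 rows (46.2 FPKM) were highest in WT 2. TLR10 was lowest in WT 1, as were the B cell genes CD79A (133 FPKM against 181 to 248 FPKM elsewhere) and MS4A1 (49.3 against 87.3 to 127 FPKM). EBF1, CR2 and CD79B of that marker list were also lowest there, but BLK was lowest in leptin 2 (64.5 FPKM, against 74.6 FPKM in WT 1). Of all genes tested, 37.5% were lowest in WT 1.

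**Figure D4:**
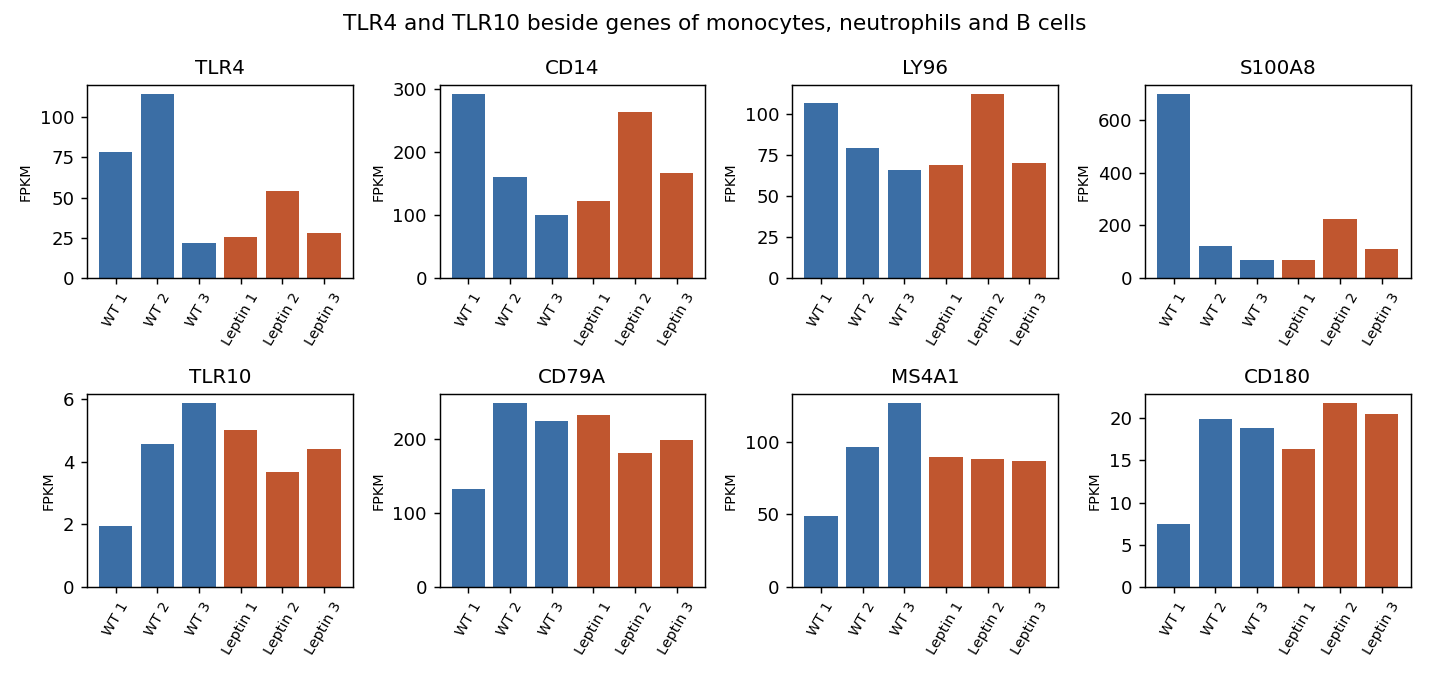
FPKM per library of TLR4 and TLR10 beside CD14, LY96, S100A8, CD79A, MS4A1 and CD180, each panel from 0 and with its own scale (WT blue, leptin pigs orange). TLR4 peaks in WT 2, CD14 and S100A8 in WT 1, and TLR10, CD79A, MS4A1 and CD180 are all lowest in WT 1, as are 37.5% of all genes tested.

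Ratios of receptors within a library were compared for genes whose proteins act together, since a ratio does not depend on the scaling of a library. TLR1 to TLR6, the alternative partners of TLR2, was 1.77 ± 0.351 in WT and 2.09 ± 0.226 in leptin pigs (SD, n = 3 each, adjusted exact p = 0.8). TLR2 to TLR6 was 5.31, 3.71 and 1.92 in WT and 2.03, 3.65 and 2.06 in leptin pigs (adjusted exact p = 0.8). TLR7 to TLR8 was 0.912 ± 0.234 and 0.911 ± 0.0810 (SD, n = 3 each, adjusted exact p = 1.0). MYD88 to the sum of the 9 receptors was 1.504 ± 0.310 and 1.74 ± 0.162 (SD, n = 3 each, adjusted exact p = 0.8). None of the 4 ratios differed between the groups at the adjusted p, with 0.1 the smallest raw p the exact test allows, and without both replicate 1 libraries the log2 difference turned sign for TLR2 to TLR6 (0.042) and TLR7 to TLR8 (-0.13).

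The receptors' shares of their summed FPKM shifted between libraries. The 9 receptors summed to 147, 223 and 99.4 FPKM in WT and to 103, 154 and 98.9 FPKM in leptin pigs. TLR4 made up 53.3% and 51.4% of the sum in WT 1 and WT 2 and 22.1% to 34.9% in the other 4 libraries, while TLR2 stayed between 19.6% and 24.6% and TLR1 ranged from 7.21% to 22.7%. Thus WT 1 and WT 2 differed from WT 3 more than WT 3 differed from the leptin pigs in the share of TLR4.

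The other genes of the pathway were read from 5 lists by role, 75 symbols of which 58 were found and 56 tested. In limma 0 of the 56 had an adjusted p under 0.05 and 1 an unadjusted p under 0.05, against 3.18% of all genes. Of the 56, 32 were higher and 24 lower in leptin pigs, with a median of 0.034 on the log2 scale beside 0.059 over all genes. Without both replicate 1 libraries 55 were tested, 27 higher and 28 lower, with a median of -0.0023 beside -0.032 over all genes, 0 at an adjusted and 2 at an unadjusted p under 0.05 in limma, against 2.32% of all genes at the unadjusted p.

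Of the 11 adaptors and coreceptors tested, 8 were higher and 3 lower in leptin pigs (median 0.14), none past a p under 0.05, and without both replicate 1 libraries the counts were again 8 and 3 (median 0.12). CD180, a TLR-like surface protein of B cells, was at 7.51, 19.96 and 18.8 FPKM in WT and at 16.4, 21.8 and 20.5 FPKM in leptin pigs (log2 fold change 0.42, and 0.12 without both replicate 1 libraries). As for TLR10, its lowest value was in WT 1, where 37.5% of all genes tested were lowest. LY96 was at 106, 79.3 and 65.6 FPKM in WT and at 68.4, 112 and 69.6 FPKM in leptin pigs, so WT 1 and leptin 2 were high. UNC93B1, which carries the endosomal receptors to their compartment, was at 60.5 to 80.5 FPKM in WT and at 43.2 to 123 FPKM in leptin pigs.

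Of the 18 kinases and ubiquitin ligases tested, 11 were higher and 7 lower (median 0.031), which turned to 6 and 12 (median -0.066) without both replicate 1 libraries. Over all genes tested the counts turned as well, from 6772 higher and 3963 lower to 4507 higher and 5924 lower. IRAK4, the first kinase bound by MYD88, was at 17.5 to 25.2 FPKM in WT and at 20.4 to 23.0 FPKM in leptin pigs, and TRAF6, the ligase downstream of it, was at 3.18 to 3.87 FPKM and 3.26 to 3.69 FPKM. Both were thus far less abundant than MYD88 in every library. PELI3, an IRAK-binding ubiquitin ligase, had the highest fold change of this list at 0.46 on the log2 scale, and TAB2, an adaptor of the kinase TAK1, the lowest at -0.25. Both values moved without the replicate 1 libraries, to 0.20 and -0.0023.

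Of the 9 transcription factors, 4 were higher and 5 lower (median -0.022), and without both replicate 1 libraries 5 and 4 (median 0.13). JUN, a subunit of AP-1, was at 116, 63.8 and 105 FPKM in WT and at 131, 118 and 148 FPKM in leptin pigs, the 1 gene of the 56 whose groups did not overlap, against 7.63% of all genes. Its unadjusted p in limma was 0.0618. REL, a subunit of NF-κB, was at -0.39 and NFKB1 at -0.13 on the log2 scale. JUN was at 0.68, REL at -0.36 and NFKB1 at -0.26 without both replicate 1 libraries.

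Of the 9 inhibitors tested, 6 were higher and 3 lower (median 0.11), and without both replicate 1 libraries 7 and 1 of the 8 then tested (median 0.11). NFKBIA, which holds NF-κB in the cytoplasm and is itself an NF-κB target, was the 1 gene of the 56 with an unadjusted p under 0.05 in limma (3.18% of all genes had one), and its adjusted p there was 0.993. It was at 114, 72.1 and 93.4 FPKM in WT and at 145, 212 and 112 FPKM in leptin pigs, a log2 fold change of 0.72 with an SE of 0.26. Leptin 3 lay just below WT 1, so its groups overlapped. IL1RL1, the IL-33 receptor, was lowest in the list at -0.47 on the log2 scale. In the fit without both replicate 1 libraries NFKBIA was at 0.90 and IL1RL1 at -0.78, and both then had an unadjusted p under 0.05 in limma (adjusted p = 0.999 each).

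Of the 9 other pattern receptors tested, 3 were higher and 6 lower (median -0.19), and without both replicate 1 libraries 1 and 8 (median -0.11). DDX58 (RIG-I), a cytoplasmic RNA sensor, was at 26.9, 49.6 and 11.7 FPKM in WT and at 10.1, 26.3 and 14.8 FPKM in leptin pigs. Like TLR4 it was highest in WT 2 and had WT 1, WT 2 and leptin 2 as its 3 highest libraries. IFIH1 (MDA5), its relative, was at -0.34 on the log2 scale and TMEM173 (STING) at 0.27, neither past a p under 0.05. DDX58 was at -0.29, IFIH1 at -0.075 and TMEM173 at -0.074 without both replicate 1 libraries.

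**Figure D5:**
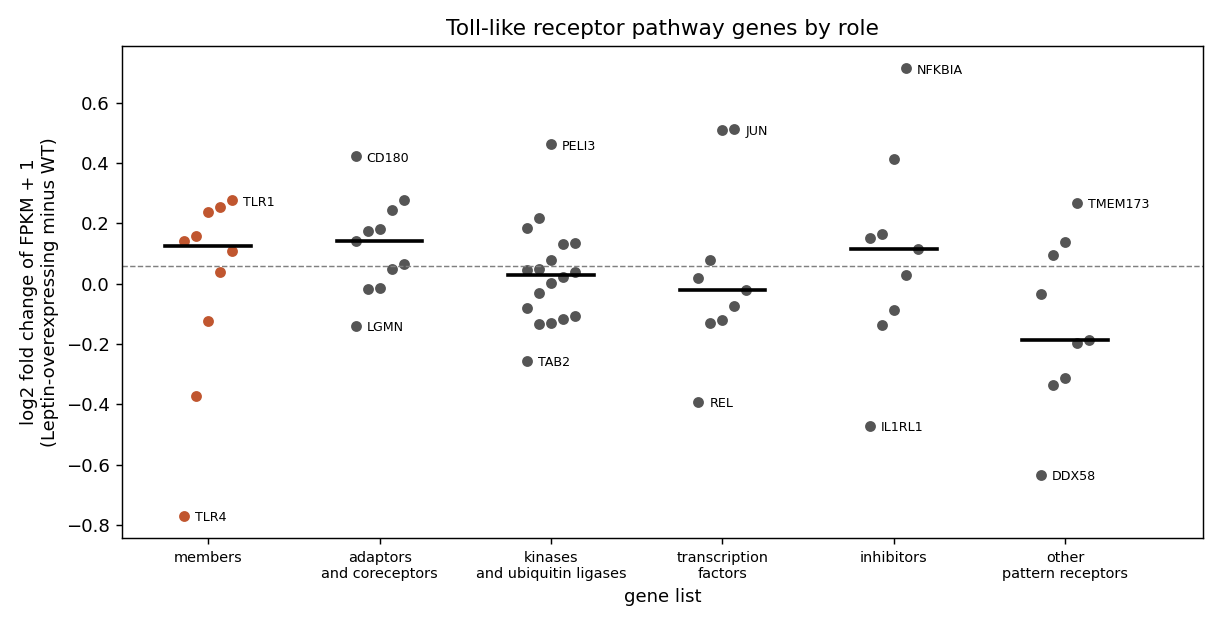
Log2 fold change of FPKM + 1, leptin minus WT pigs, for the 10 members and the 5 pathway lists, 1 point per gene, with the list median as a bar and the all-gene median of 0.059 as a dashed line. Points of each list lie on both sides of 0, and NFKBIA (0.72) and TLR4 (-0.77) are the extremes.

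Genes with the pattern most like that of a member were taken for the 3 members whose levels varied most, TLR4, TLR2 and TLR10, by the root mean square difference of centred log2(FPKM + 1) over the 6 libraries among 7099 genes. For TLR4 they were IL1RAP, the shared subunit of IL-1 family receptors (0.158), the macrophage surface protein ADGRE1 (0.163) and the interferon-induced RSAD2 (0.215). For TLR2 they were TDRD7 (0.104), IFI44L (0.107) and HSH2D (0.120). For TLR10 they were RFX5 (0.0787) and CIITA (0.0812), both regulators of MHC class II genes, and UST (0.0895). IL1RAP, at 11.6, 14.4 and 2.71 FPKM in WT and 2.58, 5.95 and 3.95 FPKM in leptin pigs, shows the same 3 high libraries as TLR4. CIITA, at 17.2, 31.0 and 44.8 FPKM in WT and 33.2, 26.9 and 29.7 FPKM in leptin pigs, is lowest in WT 1 and highest in WT 3, as TLR10 is. Such shared high and low libraries follow from how these genes were chosen and are no separate result.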

How the data were processed

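PBMC RNA of 6 pigs (3 WT and 3 Leptin-overexpressing, by the labels) was sequenced as paired-end reads of 101 bp from strand-specific libraries. The authors deposited 1 FPKM value per gene and library. Their methods name Bowtie on the Ensembl version 75 transcriptome and RSEM, whereas the submitters' processing notes name FastQC, STAR 2.5, Cuffnorm and DESeq 1.22.1, and which of these made the table is not stated. The deposited table also holds the authors' own fold changes, p-values and false discovery rates, which were not used. FPKM hold no counts, so depth is unknown and precision rests on 3 animals per group. FPKM summed to 444888 to 503140 per library, and 74 genes with 20 FPKM or more in 1 library were listed at 0 in a different one, so a 0 is given as listed.

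Genes with at least 1 FPKM in at least 3 libraries (10735) were tested on the scale of log2(FPKM + 1) with limma 3.58.1 (R 4.3.3) with genotype as the 1 factor, two-sided, with Benjamini-Hochberg adjustment over all of them. The methods state maSigPro, a time-course regression, which was not run. Levels and ratios were compared by exact permutation tests in SciPy 1.17.1 under Python 3.11.15. The fit was tested on simulated data. Of 4000 genes without a symbol in the table, 1504 were named through a reference table, used only for list symbols that the table lacked. The members and lists were chosen with earlier results of these data known. Named pathway genes were the 2 highest and 2 lowest fold changes per list, a subset of which is printed, with IRAK4, TRAF6, CD14, LY96 and UNC93B1 added for their roles (subset and additions chosen after values were seen), and pattern matches were the 3 nearest genes. Alternatives were another pseudocount and filter, 2 scalings, other variance models, a replicate block, each library left out, both replicate 1 libraries left out and, added after the data were seen, DDX3Y as a covariate and the lists without both replicate 1 libraries. Of the B cell markers, 1 is not reported here and was left out of its list.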

Additional observations from a re-analysis of the deposited data

How the results depend on the processing

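In all 16 alternatives 0 members and 0 pathway genes had an adjusted p under 0.05 in limma, and TLR4, TLR2, TLR7 and TLR8 kept their direction in each of them, TLR4 between -1.46 (without WT 3) and -0.29 (without WT 2), TLR2 between -0.71 (without WT 3) and -0.082 (without WT 2), TLR7 between 0.070 (without both replicate 1 libraries) and 0.46 (without WT 2) and TLR8 between 0.12 and 0.31. TLR6 turned to -0.020 with median-of-ratios scaling and to -0.079 with all libraries scaled to the same total, a scaling that moved the all-gene median by -0.11. Without both replicate 1 libraries TLR10 was at -0.30, TLR6 at -0.21, TLR3 at -0.063, TLR1 at -0.053 and MYD88 at 0.10, and the log2 differences of the ratios TLR2 to TLR6 and TLR7 to TLR8 were 0.042 and -0.13. Leaving out 1 library at a time, the fold change ranged from -0.21 to 0.40 for TLR10, from -0.21 to 0.25 for TLR6, from -0.042 to 0.47 for TLR1, from -0.0020 to 0.34 for TLR3 (each lowest without WT 1), from -0.32 to 0.012 for MYD88 (highest without leptin 1) and from -0.040 to 0.26 for TLR9 (lowest without leptin 2). The count of members at an unadjusted p under 0.05 ranged from 0 to 1 in these fits, TLR7 without WT 2 at 0.46 (2.6% of all genes in that fit) and TLR4 without WT 3 at -1.46 (7.99%). The count of pathway genes ranged from 0 to 3 there. It was 2 with a pseudocount of 0.1, with the filter of 1 FPKM in every library, with the same total, with an intensity trend and robust prior and without both replicate 1 libraries, and 0 without moderation and with the DDX3Y covariate. The replicate numbers do not pair animals (correlations of same-numbered libraries -0.284, 0.135 and -0.00728), and the replicate block gave 1 member, TLR4 (p = 0.0447), and 2 pathway genes at an unadjusted p under 0.05, against 3.58% of all genes. The cause was not tested. The FPKM give no depth, so how far low levels such as those of TLR3 are limited by counting is unknown.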

Other observations

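The table's own KEGG annotation of the Toll-like receptor pathway covers 52 genes, of which 43 are not among the 10 described above and 42 of these were tested. They include the products that the pathway turns on. Of the 42, 16 were higher and 26 lower in leptin pigs (median log2 fold change -0.078 beside 0.059 over all genes), with 0 at an adjusted p under 0.05 in limma and 3 at an unadjusted p under 0.05, against 3.18% of all genes. The genes named next were chosen after their values were seen. TNF, an inflammatory cytokine of monocytes and T cells, was at 18.4, 8.76 and 35.9 FPKM in WT and at 43.4, 47.5 and 46.6 FPKM in leptin pigs. The log2 fold change of TNF was 1.29 (SE 0.41, adjusted p = 0.993 in limma), and the 3 leptin libraries lay above all 3 WT libraries. CD80 and CD86, the costimulatory ligands that antigen-presenting cells show to T cells, both had the 3 leptin libraries below all 3 WT libraries. CD80 was at 12.2, 16.0 and 16.4 FPKM in WT and at 10.1, 7.60 and 10.6 FPKM in leptin pigs (log2 fold change -0.60, SE 0.18, adjusted p = 0.993 in limma). CD86 was at 29.6, 30.3 and 26.8 FPKM in WT and at 24.5, 25.7 and 22.1 FPKM in leptin pigs. Of the 42 genes, 2 had all leptin libraries above and 2 had all of them below the WT libraries. Groups without overlap were seen for 7.63% of all genes tested. Without both replicate 1 libraries the log2 fold change was 1.34 for TNF, -0.78 for CD80 and -0.24 for CD86. Of the 42 genes, 17 were then higher and 25 lower, with a median of -0.042 beside -0.032 over all genes. All genes leaned the same way in that fit, with 4507 higher and 5924 lower. In limma 0 of the 42 then had an adjusted and 3 an unadjusted p under 0.05, against 2.32% of all genes at the unadjusted p.

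The chemokine genes of the same annotation overlapped between the groups. CXCL8, which attracts neutrophils, was at 35.8 to 79.2 FPKM in WT and at 20.7 to 85.8 FPKM in leptin pigs, and CCL5, which attracts T cells, was at 448 to 869 FPKM and 331 to 678 FPKM. CXCL10, an interferon-induced chemokine, was at 42.3 FPKM in WT 2 and at 9.65 to 15.9 FPKM in the other 5 libraries, so that WT 2 stood out as it did for the ratio of TLR4 to CD14.

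With the DDX3Y level as a covariate, an alternative chosen after seeing the data, the log2 fold changes of all 10 members kept their sign. With the value without the covariate in parentheses, they were -0.44 for TLR4 (-0.77), -0.24 for TLR2 (-0.37), -0.074 for MYD88 (-0.13), 0.0017 for TLR6 (0.038), 0.022 for TLR10 (0.14), 0.11 for TLR9 (0.11), 0.14 for TLR3 (0.16), 0.15 for TLR1 (0.28), 0.16 for TLR8 (0.24) and 0.27 for TLR7 (0.25). None of the 10 had an unadjusted p under 0.05 in limma with the covariate, against 1.45% of all genes.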
